A study of Mus musculus with 12 samples.

Results

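The fiber cells that fill the lens depend on a small set of membrane, filament and maturation genes, and 8 genes named as such were followed here through RNA-seq libraries made from mouse retina. They were Bfsp1, Bfsp2, Mip, Lim2, Gja3, Dnase2b, Hsf4 and R3hdml, 8 of the 54146 genes in the count tables. The genes were chosen by their counts scaled to the library total (CPM, per 1e+06 counts) in these same 12 libraries, compared over the conditions and within each, so their levels and differences are given as a description and carry no test. All 8 passed the filter on low counts that left 18628 genes for testing.

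Retinal RNA came from 1 eye of each of 12 mice, 3 per condition. The cKO mice carried Crx-CreERT2 and Otx2 flox/flox, on a 129/SV background, and received a single intraperitoneal injection of tamoxifen at postnatal day 30 (P30). Crx is a photoreceptor gene, so recombination was directed to photoreceptors and not to the retinal pigment epithelium (RPE), where Otx2 is also expressed. Mice 4 to 6 were taken at P32, mice 7 to 9 at P34 and mice 10 to 12 at P38, which is 2, 4 and 8 days after the injection. Mice 1 to 3 were controls taken at P30, labelled as controls of the Crx line and with no injection day. Age and time since tamoxifen moved together, and no control was taken at P32, P34 or P38, so the effects of age, tamoxifen and Otx2 loss cannot be told apart. Strains of the 129 family are known to carry a deletion within Bfsp2, and the Bfsp2 alleles of these mice were not read here.

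Lens fibers elongate from the lens epithelium, pack their cytoplasm with crystallins, and lose their nuclei and organelles as they mature. Their membranes are joined by water channels, adhesion proteins and gap junctions, and beneath the membrane lies a beaded filament built from a pair of intermediate filament proteins characteristic of these cells. The retina makes no lens fibers, although Hsf4 and several of the lens transcription factors are also expressed outside the lens.

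Total counts per library ran from 29701483 to 60145034. Otx2, the targeted gene, lay between 293 and 377 CPM in all 12 mice, with log2 fold changes from P30 of 0.14 ± 0.11 (SE), 0.15 ± 0.11 and 0.17 ± 0.11 at the 3 knockout ages, for which edgeR's quasi-likelihood test gave Benjamini-Hochberg adjusted p values of 0.703, 0.684 and 0.847. The deletion takes out a single exon and leaves Otx2 in other cells, so a count over the whole gene does not check it. Rod markers were high in every library, with Gnat1, the rod transducin subunit, between 10600 and 19500 CPM. Crystallins made up 5.25% to 7.14% of all counts in mice 3, 4 and 5, 0.716% to 1.64% in mice 1, 10, 11 and 12, and 0.0387% to 0.128% in mice 2, 6, 7, 8 and 9. Controls thus lay at both extremes, as did P32 mice, and every mouse's value is given for each of the 8 genes.

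The stretches before the start sites of 4 of the genes are shown because they stand for patterns described below, in which Bfsp1 and Dnase2b followed each other, Mip followed the crystallin Cryaa, and R3hdml differed from all 3. Each is the 250 bases before the start in RefSeq's annotation of GRCm38.p6, written 5′ to 3′ on the gene's own strand, and none of the 250 bases lies in an annotated exon. Bfsp1 is at chr2:143863174-143863423 on the minus strand, Mip at chr10:128225560-128225809 on the plus strand, Dnase2b at chr3:146615599-146615848 on the minus strand and R3hdml at chr2:163492068-163492317 on the plus strand. Capitals mark a match, on either strand, to 1 of 4 short motifs. The first was GAANNTTC, a heat shock element of the kind that Hsf4 recognises. Next came TGCTGA, the core of the site of the large Maf factors that regulate crystallin genes. Otx2 and Crx both recognise the third motif, spelled TAATCC. The last was the TATA box, searched as TATAAA.
Bfsp1: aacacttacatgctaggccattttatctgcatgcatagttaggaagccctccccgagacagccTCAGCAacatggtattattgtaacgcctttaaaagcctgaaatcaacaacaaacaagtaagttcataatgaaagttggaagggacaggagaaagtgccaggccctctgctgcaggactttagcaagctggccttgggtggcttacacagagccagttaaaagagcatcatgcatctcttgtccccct
Mip: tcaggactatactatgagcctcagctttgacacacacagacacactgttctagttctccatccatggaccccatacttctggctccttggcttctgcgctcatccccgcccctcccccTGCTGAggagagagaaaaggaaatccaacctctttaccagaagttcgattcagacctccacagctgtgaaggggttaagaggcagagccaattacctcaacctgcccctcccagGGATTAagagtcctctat
Dnase2b: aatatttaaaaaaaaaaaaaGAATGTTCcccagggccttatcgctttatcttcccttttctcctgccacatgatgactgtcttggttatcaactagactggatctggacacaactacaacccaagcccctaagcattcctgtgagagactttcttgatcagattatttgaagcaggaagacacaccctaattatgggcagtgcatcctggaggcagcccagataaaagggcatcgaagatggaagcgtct
R3hdml: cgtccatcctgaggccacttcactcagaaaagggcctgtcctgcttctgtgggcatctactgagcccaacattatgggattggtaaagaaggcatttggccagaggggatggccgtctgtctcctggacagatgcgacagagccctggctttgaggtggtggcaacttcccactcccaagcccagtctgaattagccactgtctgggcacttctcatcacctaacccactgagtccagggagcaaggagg
The Maf core stood before Bfsp1, Mip and Lim2, 3 of the 7 genes with a window, and is found in 16.1% of the 32851 windows of this length. These 7 genes had 8 windows, as Gja3 had 2, and the percentages are shares of windows and not of genes. The heat shock element stood before Dnase2b alone among the 7 and is in 6.69% of all windows. The Otx2 and Crx motif stood before Mip alone and is in 6.25% of all windows. The TATA box stood before Gja3 alone, in 1 of its 2 windows, and is in 12.4% of all windows. R3hdml and Bfsp2 held none of the 4. The windows of Bfsp2 (103449177 to 103449426) and Lim2, and 1 of Gja3, lie inside the annotated spans of these genes given below. Bases before the outer starts of the Bfsp2 and Lim2 spans were therefore not searched. Annotated exons take up 135 of the 250 bases for Lim2, and 70 and 168 in the 2 windows of Gja3. No overlap between the motifs arose in these windows. A match of letters is a description and not evidence that a factor binds.

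**Figure D1:**
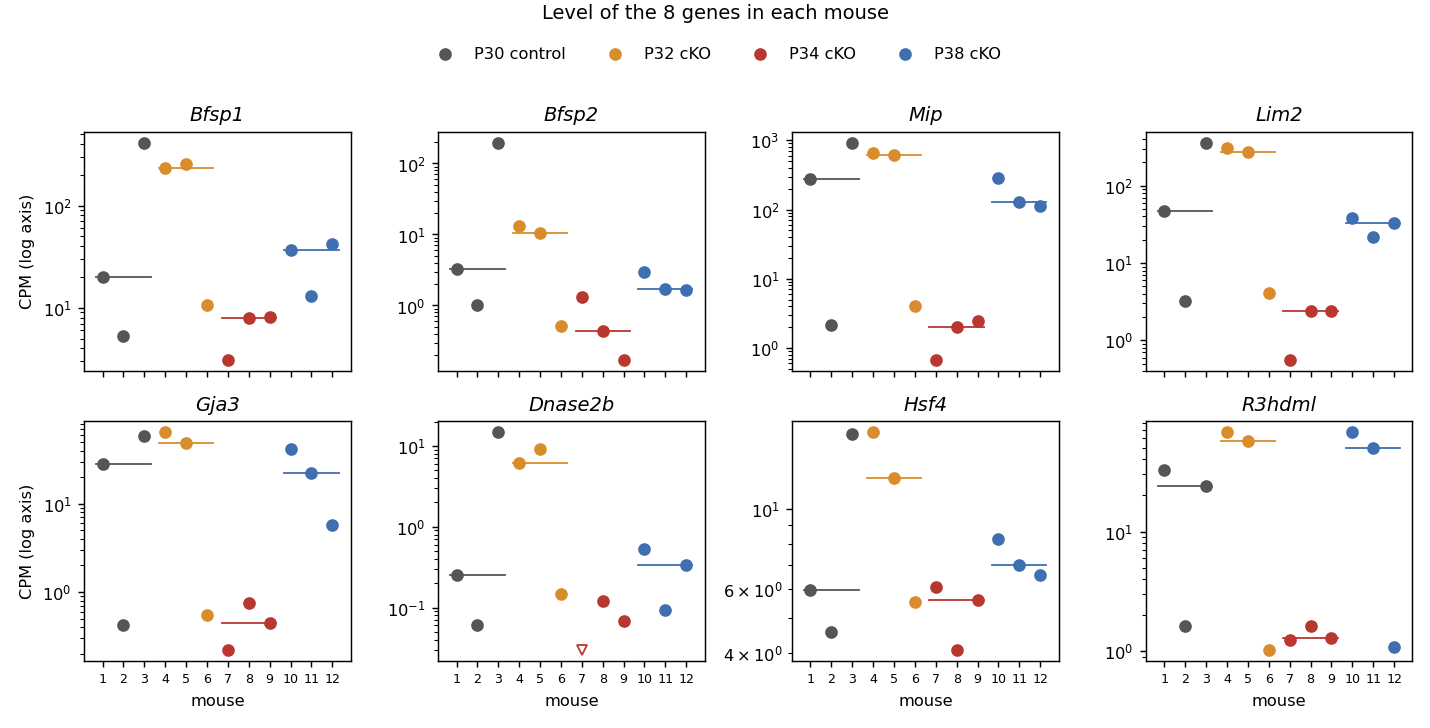
Level of each of the 8 genes in each of the 12 mice, in CPM on a log axis that differs between panels. Points are single libraries coloured by condition, short lines are the median of 3 mice, and the open triangle marks a count of 0 (Dnase2b in mouse 7, drawn at the foot of its panel). In 7 of the 8 panels mice 2, 6, 7, 8 and 9 lie far below mice 3, 4 and 5, while Hsf4 spans less than a log10 unit.

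The beaded filament genes were the first group. Bfsp1 (chromosome 2, 143826528 to 143863173, minus strand, GRCm38), which encodes filensin, measured 19.9, 5.33 and 410 CPM in control mice 1, 2 and 3. At P32 it measured 233, 253 and 10.6 CPM in mice 4, 5 and 6. At P34 it measured 3.06, 7.93 and 8.09 CPM, and at P38 36.4, 12.9 and 42.3 CPM. Mice 3, 4 and 5 stood above all others, and the controls spanned the whole range of the knockouts except for the lowest mouse, P34 mouse 7. The ratio of the highest to the lowest mouse was 134. Condition means were 145 ± 229 (SD, n = 3) at P30, 165 ± 134 at P32, 6.36 ± 2.86 at P34 and 30.6 ± 15.6 at P38, so at P30 the SD was larger than the mean. The fitted log2 fold changes from P30 were 0.19 ± 1.26 (SE) at P32, -4.51 ± 1.48 at P34 and -2.25 ± 1.32 at P38. Without control mouse 3 these became 3.71 at P32, -1 at P34 and 1.26 at P38.

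Bfsp2 (chromosome 9, 103424924 to 103480420, minus strand) encodes phakinin, the partner of filensin in the filament. It measured 3.22, 1.01 and 195 CPM in mice 1, 2 and 3, and 13.1, 10.6 and 0.517 CPM in mice 4, 5 and 6. At P34 it measured 1.30, 0.441 and 0.169 CPM, and at P38 2.98, 1.69 and 1.66 CPM. A single control mouse therefore held 14.9 times the level of the next highest library, the P32 mouse 4. The log2 fold changes were -3.04 ± 1.49 at P32, -6.67 ± 1.87 at P34 and -4.96 ± 1.66 at P38. Without mouse 3 these became 1.93, -1.73 and -0.01.

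Although both proteins build the same filament, their RNAs did not keep to 1 ratio. Mouse 3 held 47.7 Bfsp2 counts per 100 of Bfsp1 (95% Wilson interval 46.3 to 49.1), whereas mice 4 and 5, whose Bfsp1 levels were 233 and 253 CPM, held 5.63 (5.11 to 6.20) and 4.21 (3.82 to 4.65). Control mouse 1 held 16.1 (13.9 to 18.7) and control mouse 2 held 18.9 (14.0 to 25.6). At P34 the ratio was 42.3 (30.2 to 59.5) in mouse 7, on only 47 Bfsp2 counts, against 5.56 and 2.09 in mice 8 and 9. At P38 it was 8.19, 13.0 and 3.93 in mice 10, 11 and 12, and it was 4.88 in P32 mouse 6. The 3 controls thus had a higher ratio than every knockout except P34 mouse 7, although the intervals of mice 1 and 2 overlapped that of P38 mouse 11 (10.2 to 16.7). These intervals cover counting error only.

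Mouse 3 was set against the other 11 for every tested gene, a comparison made after the Bfsp2 values were seen. Only 4 genes had a level of at least 1 CPM there that was more than 4 times that of every other mouse: Bfsp2, Ikzf1, Rps3a1 and Agtr1a. The 6 other protein-coding genes within 500 kb of Bfsp2 with a mean of at least 5 CPM (Rab6b, Srprb, Trf, Topbp1, Cdv3 and Tmem108) all lay within the range of the other mice in mouse 3. Topbp1, which ends before Bfsp2 begins, measured 17.5 CPM in mouse 3 and 12.9 to 20.5 CPM elsewhere. The antisense gene 5830418P13Rik overlaps Bfsp2 on the opposite strand and reached at most 45 counts in any library.

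The membrane genes came next. Mip (chromosome 10, 128225838 to 128231812, plus strand) encodes the most abundant protein of the fiber membrane, a water channel. It measured 280, 2.18 and 919 CPM in mice 1, 2 and 3, and 653, 624 and 3.99 CPM in mice 4, 5 and 6. It measured 0.662, 1.98 and 2.44 CPM in the P34 mice and 283, 127 and 114 CPM in the P38 mice. The 12 mice divided into 7 at 114 CPM or more and 5 at 3.99 CPM or less, with no value between them, and the low ones were control mouse 2, P32 mouse 6 and all 3 of P34. The highest mouse was 1390 times the lowest, the widest ratio among the 7 genes with a count in every mouse. The log2 fold changes were 0.09 ± 1.44 at P32, -7.89 ± 2.01 at P34 and -1.20 ± 1.47 at P38. Without mouse 3 these became 1.6, -6.4 and 0.30.

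Lim2 (chromosome 7, 43427670 to 43435996, plus strand) encodes a fiber membrane protein involved in cell adhesion. It measured 46.6, 3.25 and 358 CPM in mice 1 to 3, and 311, 271 and 4.06 CPM in mice 4 to 6. It measured 0.552, 2.40 and 2.37 CPM in the P34 mice and 38, 21.4 and 32.8 CPM in the P38 mice. The same 5 mice were lowest as for Mip, but mice 3, 4 and 5 stood farther above the P38 mice than they did for Mip. Its log2 fold changes were 0.53 ± 1.30, -6.26 ± 1.70 and -2.14 ± 1.36 at P32, P34 and P38, and without mouse 3 they were 2.97, -3.83 and 0.29.

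Gja3 (chromosome 14, 57034460 to 57058100, minus strand) encodes a gap junction connexin of fibers. It measured 27.9, 0.424 and 58.6 CPM in mice 1 to 3, and 64.4, 48.5 and 0.542 CPM in mice 4 to 6. It measured 0.221, 0.759 and 0.440 CPM at P34, on 8 to 31 counts, and 41.9, 22.4 and 5.67 CPM at P38. Mice 1, 10 and 11 came much closer to mice 3, 4 and 5 than they did for Bfsp1 or Lim2, and P38 mouse 12 stood alone between the high and low mice. The log2 fold changes were 0.39 ± 1.30, -5.90 ± 1.77 and -0.30 ± 1.30, or 1.41, -4.89 and 0.71 without mouse 3.

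Dnase2b (chromosome 3, 146580985 to 146615596, minus strand) encodes the nuclease that degrades DNA when fibers lose their nuclei. Per length it was the lowest of the 8 genes in every mouse. It measured 0.252, 0.0605 and 14.7 CPM in mice 1 to 3 and 6.12, 9.12 and 0.148 CPM in mice 4 to 6. At P34 it had 0, 5 and 2 counts, where a count of 0 in mouse 7 allows up to 0.0828 CPM, and at P38 it measured 0.534, 0.0938 and 0.339 CPM. Only mice 3, 4 and 5 were above 1 CPM. Its log2 fold changes were 0.06 ± 1.41, -6.17 ± 2.10 and -3.93 ± 1.71, and without mouse 3 they became 4.95, -1.29 and 0.96.

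Hsf4 (chromosome 8, 105269801 to 105275845, plus strand) encodes the heat shock factor of the lens, which is needed for fiber maturation. It measured 5.96, 4.58 and 16.0 CPM in mice 1 to 3, and 16.2, 12.1 and 5.54 CPM in mice 4 to 6. It measured 6.10, 4.09 and 5.62 CPM in the P34 mice and 8.27, 7.01 and 6.55 CPM in the P38 mice. Mice 3, 4 and 5 were again the highest, but the ratio of the highest to the lowest mouse was 3.97, and no library fell under 4 CPM. The log2 fold changes were 0.36 ± 0.44, -0.74 ± 0.45 and -0.27 ± 0.45, and they became 1.10, -0.01 and 0.46 without mouse 3.

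R3hdml (chromosome 2, 163492318 to 163502612, plus strand) lies on the same chromosome as Bfsp1, 19.6 Mb away. It measured 32.5, 1.63 and 24.1 CPM in mice 1 to 3, and 67.3, 57.1 and 1.03 CPM in mice 4 to 6. It measured 1.24, 1.64 and 1.29 CPM in the P34 mice and 67.3, 50.1 and 1.09 CPM in the P38 mice. Mouse 12, which was above mice 2, 6, 7, 8 and 9 for each of the other 7 genes, was here among them, and mouse 3 was below mice 1, 4, 5, 10 and 11. The log2 fold changes were 1.10 ± 1.28, -3.80 ± 1.52 and 1.03 ± 1.28, and these kept their direction whichever mouse was left out.

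The order of the condition means was P32, P30, P38, P34 for 6 of the 8 genes. Bfsp2 had its highest mean at P30 and R3hdml placed P38 before P30. Among neighbours in these orders only P38 and P34 had ranges that did not overlap, for Bfsp1, Bfsp2, Mip, Lim2, Gja3 and Hsf4. All 3 P38 mice lay above all 3 P34 mice for these 6 of the 8 genes, and for 5.36% of all tested genes. All 3 P34 mice lay below all 3 P32 mice for 4 of the 8 (13.6% of all tested genes) and below all 3 P30 mice for 1 of the 8 (9.65%). In RNA from a whole tissue, fewer cells of a type, less RNA per cell and less adjoining tissue taken cannot be told apart.

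A gene was called by edgeR's quasi-likelihood test where its adjusted p did not exceed 0.05 and its log2 fold change was 0.5 or more away from 0. By this rule 0 of the 8 genes were called at P32 in either direction, where 0% of all tested genes were lower and 0% higher. At P34, 0 of 8 were lower against 0.660% of all genes, and at P38, 0 of 8 in either direction against 0% lower and 0% higher. At an unadjusted p of at most 0.05 with the same fold change the counts were 0 of 8 at P32 (1.77% of all genes lower, 1.13% higher), 7 of 8 lower at P34 (5.42%) and 2 of 8 lower at P38 (2.66%). Between ages, 0 of 8 were lower at P34 than at P32 (0.242%) and 7 of 8 at the unadjusted p (8.93%), and 0 of 8 were higher at P38 than at P34 (0.199%) and 4 of 8 at the unadjusted p (3.01%). DESeq2 called 0 of 8 at P32 (0.0845% lower, 0.0497% higher), 4 of 8 lower at P34 (1.61%), and 0 of 8 lower at P38 (0.191%). It called 6 of 8 lower at P34 than at P32 (4.73%) and 2 of 8 higher at P38 than at P34 (0.674%), and it gave no adjusted p to Bfsp2. Since these comparisons share the values that chose the genes, the counts are set beside the shares of all genes only as a description.

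Taken over the 8 genes, the median fitted log2 fold change was 0.28 at the earliest age, -6.03 at P34 and -1.67 at the last, where all tested genes had medians of -0.01, 0 and -0.01. Control mouse 3 decided much of this. Without it the median became 1.76 (P32), -2.68 (P34) and 0.59 (P38).

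**Figure D2:**
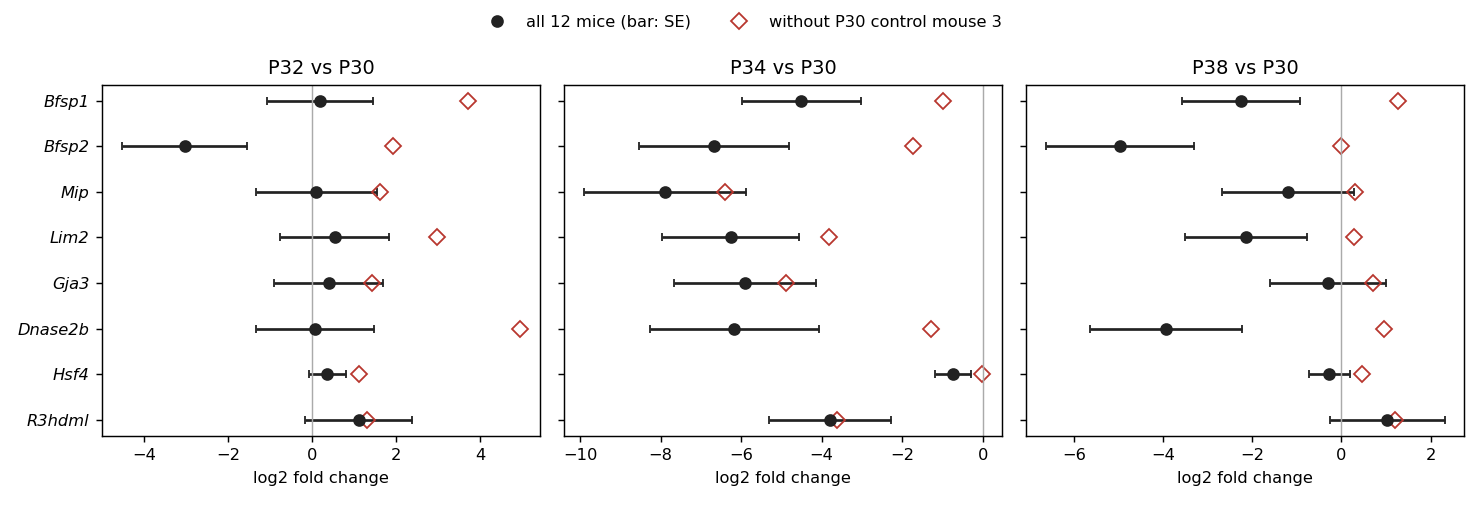
Fitted log2 fold change of each gene from P30 at P32, P34 and P38. Black points with bars are the fit over all 12 mice and its SE, and open red diamonds are the fit without control mouse 3. The diamonds lie at higher values in all 3 panels, and at P38 those of Bfsp1, Mip, Lim2, Gja3, Dnase2b and Hsf4 are on the other side of 0.

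Levels can be compared between genes only per length, as CPM per kilobase of merged exons. In control mouse 3 Mip stood first at 429 CPM per kb, before Bfsp1 at 171, Lim2 at 164 and Bfsp2 at 115. R3hdml at 22.0, Gja3 at 19.8, Hsf4 at 9.13 and Dnase2b at 5.26 CPM per kb followed. In P34 mouse 7 the order per length was another one, with Hsf4 first at 3.48 CPM per kb and Bfsp1 next at 1.28, while Mip was in the fifth place at 0.309.

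The make-up of the 8 genes' counts also differed between mice. Mip took 46.1% of them in mouse 3, 47.9% and 48.6% in mice 4 and 5, and 67.2%, 59.1%, 52.3% and 55.8% in mice 1, 10, 11 and 12. In mice 2, 6, 7, 8 and 9 it took 5.04% to 15.1%, and Hsf4 took 21% to 46.4%. The least certain of these shares were those of mouse 7, where Hsf4 took 46.4% (42.0% to 50.9%) of 476 counts. In these 5 mice Bfsp1 rather than Mip was the larger of the pair, per length as well as by count.

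**Figure D3:**
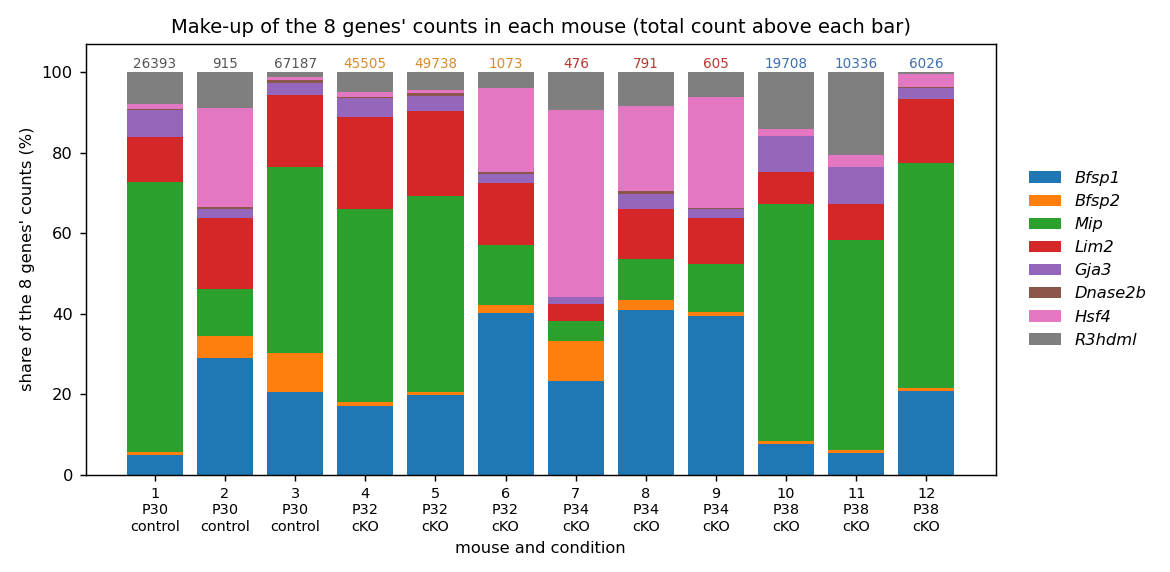
Share of the summed counts of the 8 genes taken by each gene in each mouse, in percent, with the summed count printed above each bar and coloured by condition. Mip takes 46.1% to 67.2% in mice 1, 3, 4, 5, 10, 11 and 12, and 5.04% to 15.1% in the other 5 mice, where Hsf4 is 21% or more.

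Mip counts per 100 of Bfsp1 lay in 3 bands. They were 1400 (1330 to 1490), 776 (735 to 818) and 979 (897 to 1070) in mice 1, 10 and 11. They were 224 (220 to 229), 281 (273 to 288), 247 (241 to 253) and 269 (252 to 287) in mice 3, 4, 5 and 12. They were 40.9, 37.7, 21.6, 25.0 and 30.1 in mice 2, 6, 7, 8 and 9. The bands cut across the conditions, since controls are found in each of them and P38 mice in the upper pair.

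R3hdml and Gja3 shared their high mice but not their ratio. R3hdml counts per 100 of Gja3 were 104 (98.5 to 111) and 118 (111 to 125) in P32 mice 4 and 5, close to 116 (109 to 124) in control mouse 1. They were 41.2 (37.9 to 44.7) in control mouse 3 and 19.2 (13.2 to 27.9) in P38 mouse 12, against 160 (151 to 170) and 224 (207 to 241) in P38 mice 10 and 11. Mice 3 and 12 thus held the least R3hdml for their Gja3.

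**Figure D4:**
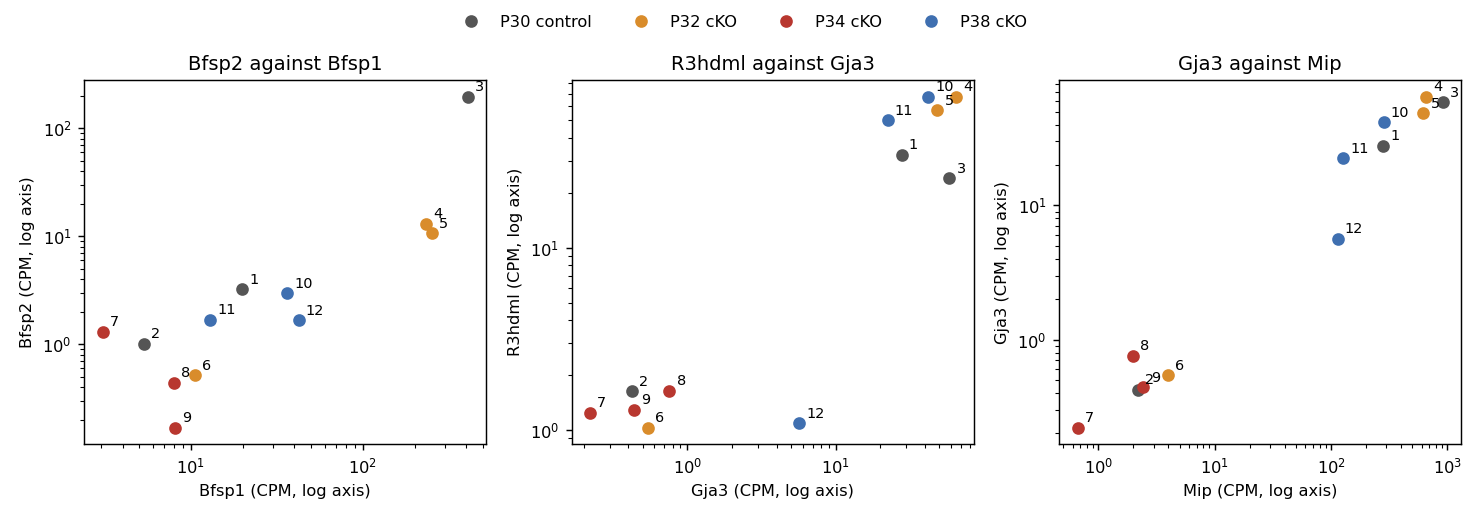
Level of one gene against another in each mouse, in CPM on log axes, with points numbered by mouse and coloured by condition. Left, Bfsp2 against Bfsp1, where mouse 3 lies above mice 4 and 5. Middle, R3hdml against Gja3, where mouse 12 sits at 5.67 CPM of Gja3 with R3hdml at 1.09 CPM. Right, Gja3 against Mip, where the points follow a single line more closely.

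Across the 12 mice the log2 CPM of the 8 genes correlated with each other to different degrees, given here as descriptions over mice that share their conditions and the dissection of each eye. Pearson's r was highest for Mip with Gja3 at 0.985 (Spearman's rho 0.951) and Bfsp1 with Dnase2b at 0.984 (0.958). It was 0.969 (0.965) for Mip with Lim2 and 0.956 (0.937) for Bfsp1 with Lim2. R3hdml stood apart, with 0.920 (0.776) for Gja3 but 0.667 (0.524) for Bfsp1 and 0.645 (0.524) for Dnase2b. Leaving out mice 3 and 7, the farthest from the median, gave 0.981 for Mip with Gja3, 0.975 for Bfsp1 with Dnase2b and 0.644 for Bfsp1 with R3hdml. The mice lie apart as high and low ones, so each coefficient includes that separation.

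Of the 18620 other tested genes, the 10 most like the mean log2 CPM of the 8 were Crybb3 (r = 0.992, rho = 0.979), Cryba1 (0.990, 0.972), Crygs (0.990, 0.979), Crybb2 (0.989, 0.979), Lctl (0.988, 0.965), Grifin (0.988, 0.972), Crybb1 (0.987, 0.979), Cryba2 (0.986, 0.965), Cryaa (0.986, 0.979) and Cd24a (0.985, 0.895). Of these 10, 7 are crystallins, the structural proteins that fill the fiber cytoplasm. An r of at least 0.9 was reached by 106 genes, or 0.569% of them. Without mice 3 and 7 the r of these 10 genes ran from 0.982 to 0.992.

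The single genes had different nearest neighbours. Bfsp1 was nearest to Crygc (r = 0.993, rho = 0.979), Lgsn (0.991, 0.993) and Crygb (0.988, 0.958), and Dnase2b to Birc7 (0.982, 0.937), Fabp5 (0.981, 0.951) and Lgsn (0.981, 0.972). Lim2 was nearest to Crybb3 (0.996, 0.986), Mip to Cryaa (0.991, 0.951), and Gja3 to Sox1ot (0.993, 0.923) and Wnt7a (0.991, 0.972). Bfsp2 was nearest to Dhx32 (0.953, 0.916) and Hsf4 to Svbp (0.970, 0.923), neither of them in the lens lists used here. R3hdml was nearest to Phgdh (0.988, 0.867), Aldh3a1 (0.988, 0.923), Arsi (0.986, 0.818), Cdh1 (0.985, 0.748) and Esyt3 (0.983, 0.804). None of these 5 is in the lens lists, and Aldh3a1, an aldehyde dehydrogenase abundant in the cornea, is in the corneal list. R3hdml was named a lens fiber gene along with the other 7, and whether its RNA came from fibers was not tested. Among the 8 genes R3hdml was nearest to Gja3 (r = 0.920) and Mip (0.851), and least like Bfsp1 (0.667), Bfsp2 (0.653) and Dnase2b (0.645). Hsf4 stayed at 4.09 CPM or more in the mice where the others were lowest.

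The other lens genes, 55 genes in 4 lists, were all tested. They had median log2 fold changes of 0.25 at P32, -2.51 at P34 and -0.23 at P38. None passed at P32 or P38, and 1 passed at P34, where 0.660% of all tested genes were lower. At an unadjusted p, 0 of 55 were lower at P32 (1.77% of all genes), 31 at P34 (5.42%) and 1 at P38 (2.66%), and with DESeq2 the calls were 0, 20 and 0, where DESeq2 called 0.0845%, 1.61% and 0.191% of all genes lower.

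The crystallins also differed between mice of the same condition. Cryaa measured 6540, 282 and 19700 CPM in mice 1 to 3, 22800, 17400 and 384 CPM in mice 4 to 6, 150, 406 and 302 CPM in mice 7 to 9 (P34), and 8440, 3390 and 3180 CPM in mice 10 to 12 (P38). Its log2 fold change at P34 was -4.95 ± 1.44, with -4.99 ± 1.46 for Cryba1 and -4.94 ± 1.46 for Crybb2. Of the 16 crystallins 0 passed the adjusted threshold at P34, where 0.660% of all genes were called lower, and all 16 had a lower fitted level with an unadjusted p of at most 0.05, as had 5.42% of all genes.

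The list of other fiber membrane, junction and cytoskeleton genes held 18 genes, of which 1 passed at P34 and 9 were lower at an unadjusted p (0.660% and 5.42% of all genes). Its most abundant members are also expressed widely in neurons and glia, and their log2 fold changes at P34 were 0.24 ± 0.20 for the spectrin adaptor Ank2, -0.98 ± 0.48 for the intermediate filament Vim and 0.04 ± 0.19 for Chmp4b of the membrane scission machinery. The gene that passed was Slc16a12, a creatine transporter. It measured 8.92, 7.18 and 12.0 CPM in mice 1 to 3, 10.6, 10.1 and 3.37 CPM in mice 4 to 6, 0.497, 0.318 and 0.440 CPM in mice 7 to 9 (P34), and 11.7, 9.56 and 3.56 CPM in mice 10 to 12 (P38). Its log2 fold change at P34 was -4.48 ± 0.56 (edgeR adjusted p = 0.0027), lower in all 3 mice than in any control, and control mouse 2, among the lowest for the 8 genes, measured 7.18 CPM. Ciliary body and iris markers, given below, were lowest in the same 3 mice, and their part in this change was not tested.

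Of the 7 genes for fiber RNA and organelle handling 0 passed at any age, and 3 of 7 were lower at P34 at an unadjusted p, against 5.42% of all genes. The most abundant, Tdrd7, Fyco1 and Celf1, had differences at P34 of 0.02 ± 0.17, 0.14 ± 0.21 and -0.16 ± 0.09 on the log2 scale. Birc7 was the member nearest to the 8 genes, at 33.5, 17.1 and 24.3 CPM in mice 3, 4 and 5 and at most 2.16 CPM elsewhere. Of the 14 genes of lens epithelium and lens transcription factors 0 passed, and 3 of 14, Gata3, Foxe3 and Sox1, were lower at P34 at an unadjusted p, again against 5.42% of all genes. Sox1 had a log2 fold change of -4.48 ± 1.57. Gata3 had no counts in the 3 mice of P34 and 0.0605 to 0.594 CPM in the controls, and Foxe3 had 2 counts in all at P34, so no fold change is given for either. Pax6, Mab21l1 and Prox1, which retinal neurons also express, had values of -0.09 ± 0.12, -0.20 ± 0.10 and 0.08 ± 0.15. Foxe3, the most specific of the lens epithelium markers, measured 0.599, 0 and 1.57 CPM in mice 1 to 3, 1.23, 0.620 and 0 CPM in mice 4 to 6, 0, 0.0490 and 0 CPM in the P34 mice and 2.57, 1.95 and 0.0679 CPM in the P38 mice. Like R3hdml it was high in mouse 10 and low in mouse 12.

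Markers of other eye tissues also differed between the libraries. The summed CPM of the 8 genes ran from 18.5 to 2000 at P30, 26.4 to 1360 at P32, 13.1 to 20.5 at P34 and 204 to 478 at P38. The summed CPM of 7 ciliary body and iris markers was 276 to 291 in the controls, 168 to 289 at P32, 90.0 to 95.6 at P34 and 158 to 221 at P38, lowest in the same 3 mice of P34 but level between controls 1, 2 and 3. At P34 against P30, 6 of these 7 were called lower (Optc, Zic4, Col9a1, Otx1, Zic1 and Slc4a5), where 0.660% of all genes were, and Optc had the lowest edgeR adjusted p (0.000423), with a log2 fold change of -4.84 ± 0.42. The sum of 6 corneal and skin epithelium markers was 3.65 to 23.9 at P30, 1.45 to 53.5 at P32, 1.27 to 4.04 at P34 and 5.43 to 34.2 at P38, and its lowest mice were mice 2, 6, 7, 8 and 9. In mice 1, 3, 4, 5, 10 and 11 most of this sum was Aldh3a1, while the corneal keratin Krt12 measured 8.81, 8.19 and 0.271 CPM in the P32 mice and 0.873, 0.305 and 1.46 CPM in the P38 mice. Of this list Dsg1a, a desmosomal cadherin, was called lower at P34 (edgeR adjusted p = 0.000681), with 1 count in all in the 3 mice against 0.883 to 2.05 CPM in the controls.

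The sum of 4 smooth muscle markers was 18.8 to 170 at P30, 5.37 to 37.7 at P32, 4.41 to 6.10 at P34 and 9.50 to 14.7 at P38, high in control mice 2 and 3, and Myh11, Acta2 and Tagln of that list were called lower at P34 than at P30 (edgeR adjusted p = 0.0389, 0.0352 and 0.0280). The sum of 8 RPE markers was 605 to 935, 511 to 648, 528 to 734 and 509 to 616, and that of 5 skeletal muscle markers 2.49 to 35.9, 2.87 to 5.43, 2.28 to 70.9 and 2.18 to 51.0, in the same order of ages. Much of the RPE sum was Rlbp1, which Muller glia also express, at 388 to 604 CPM over the 12 mice. The pigment cell gene Pmel measured 25.1, 257 and 202 CPM in control mice 1, 2 and 3, and 4.75 to 29.3 CPM in the 9 cKO mice. Of the 8 RPE markers, the pigment cell genes Mlana and Tyrp1 were called lower at P34 than at P30 (edgeR, adjusted p = 0.0316 for each), with log2 fold changes of -4.42 ± 0.82 and -3.73 ± 0.69 (SE). Pmel was at -4.21 ± 0.86 and not called (adjusted p = 0.0546), and the other 5 were between -0.37 (Best1) and 0.33 (Rpe65). The sum of 4 lens epithelium markers was 203 to 232, 231 to 239, 182 to 203 and 182 to 226, most of it Mab21l1, and that of 3 globin genes of red blood cells 40.5 to 77.1, 24.0 to 150, 40.1 to 90.7 and 19.1 to 27.1. The sum of 5 rod markers was 24100 to 27500, 23200 to 27300, 26500 to 34900 and 26900 to 39700. Of the markers in these lists only Krt14 was at 0 in all 3 mice of a condition, at P34. Cnn1, Krt14 and Myh2 did not pass the filter on low counts. By edgeR, no tested marker of the other lists was called at P34, and none of any list at P32 or P38. With DESeq2, the authors listed Myh11, Tagln, Acta2, Mlana, Pmel and Tyrp1 as lower at both P32 and P38. The part of these tissues in the levels of the 8 genes was not tested.

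**Figure D5:**
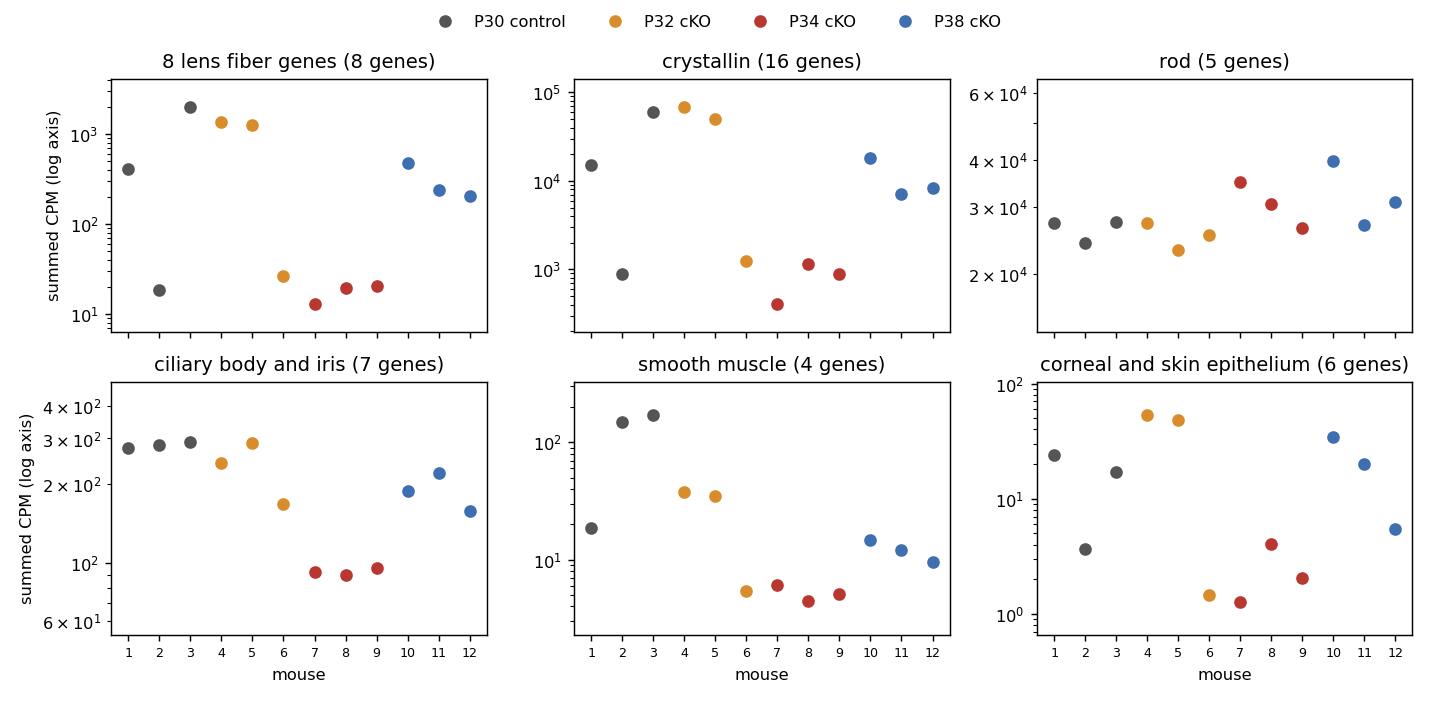
Summed CPM of the 8 genes and of 5 marker lists in each mouse, on log axes that differ between panels, with points coloured by condition. Crystallins follow the 8 genes mouse by mouse, ciliary body and iris markers are lowest in the 3 mice of P34 (90.0 to 95.6 CPM), and rod markers span 23200 to 39700 CPM.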

How the data were processed

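Retinal RNA-seq libraries of 12 mice (4 conditions, 3 mice each) were analysed. The authors made poly(A)-selected, strand-specific libraries, sequenced them as single 50 bp reads, mapped these to mm10 with STAR 2.5.3a, and deposited raw counts per Ensembl 93 gene from HTSeq 0.6.1p1 (union mode, bcl2fastq 2.17.1.14 before it, per the labels). Rows that name no gene (36.1% to 41.5% of a library) were left out, and 54079 of 54146 identifiers had a symbol.

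Counts were scaled by TMM and tested with edgeR 4.0.16 (R 4.3.3, glmQLFit and glmQLFTest, filterByExpr, 1 fit over all 12 mice with condition as the factor), p values being Benjamini-Hochberg adjusted over all 18628 genes tested. DESeq2 1.42.0, other size factors, no filter, unadjusted p values and leaving out each mouse were tried as alternatives. Genes were called where the adjusted p did not exceed 0.05 and the log2 fold change was 0.5 or more away from 0. CPM use the TMM-scaled totals (factors 0.9 to 1.05), correlations use log2 CPM with a prior count of 2, and ratios and shares of counts have 95% Wilson intervals (SciPy 1.17.1). A count of 0 allows 3 counts.

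Gene positions and merged exon lengths were taken from GENCODE M21 on GRCm38, the sequence of mm10, and sequences from RefSeq on GRCm38.p6. RefSeq windows were found for 7 of the 8 genes, and Hsf4 was the other one. Between mice of a condition, chi-square per degree of freedom was 20.4 to 268, more than sampling noise alone gives. No library was counted as a repeat, but this value cannot show that libraries came from different mice. The labels number the mice singly, and p values then measure the spread between these mice. The 8 genes, the gene lists and the marker lists were chosen with earlier results of these data known. Genes named are the 8, other lens genes past the threshold, the 3 most abundant of each lens list, the 10 genes most like the 8, Otx2 and markers of other tissues. The nearest genes of each single gene, Birc7, Foxe3 and the genes around Bfsp2 were chosen after their values were seen. A rod marker of the original list is not reported here and was left out of the rod sum.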

Additional observations from a re-analysis of the deposited data

Results flagged for a closer look

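In the edgeR fit of all 12 mice, Slc16a12 was the only other lens gene called in the test between successive knockout ages. It was lower at P34 than at P32 by a log2 fold change of -4.26 ± 0.55 (SE, edgeR adjusted p = 0.0063) and higher at P38 than at P34 by 4.31 ± 0.55 (adjusted p = 0.00725), with all 3 P34 mice below every mouse of the other ages in both comparisons. Both calls were lost when any 1 of P34 mice 7, 8 and 9 was left out. The ciliary body and iris marker Optc differed in the same direction, by -4.64 ± 0.42 and 4.11 ± 0.41. DESeq2, and edgeR without P32 mouse 6, called more of the other lens genes at P34 against P32, as given below.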

How the results depend on the processing

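The number of genes called at P32, P34 and P38 (0, 123 and 0) became 27, 359 and 47 with DESeq2, 23, 298 and 18 with no filter on low counts, and 540, 1168 and 645 with unadjusted p values. Leaving out 1 mouse gave 0 to 19, 43 to 213 and 0 to 13. The lowest at P34 was without P34 mouse 8, and the highest without P32 mouse 6. Among the 55 other lens genes, the 1 call at P34 against P30 became 20 with DESeq2, 23 with no filter and 31 unadjusted. The 1 call at P34 against P32 became 28, 28 and 36, and 0 to 35 when 1 mouse was left out, 0 without P34 mice 7, 8 or 9 and 35 without P32 mouse 6. The 1 call at P38 against P34 became 5, 3 and 18, and 0 to 1 when 1 mouse was left out, and the 0 calls at P38 against P30 became 1 unadjusted. DESeq2's size factors in edgeR changed no count by more than 1.5 times. The cause of these differences was not tested.

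Over the 8 genes, the median fitted fold change (log2) ran from -0.28 to 1.76 at P32, from -6.62 to -2.68 at P34 and from -2.25 to 0.59 at P38 when 1 mouse was left out, the highest value in each being without control mouse 3. Other size factors, DESeq2 and a prior count of 2 moved no gene's fold change by as much as the spread between mice. Of the 10 genes most like the 8, 8 remained without mice 3 and 7, and 5 by Spearman's rho. No paired analysis was possible because the labels give the 12 mice 12 different numbers. With 3 mice per condition and Gja3 at 8 to 31 counts and Dnase2b at 0 to 5 counts at P34, their fold changes at P34 have little precision.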
